A study of Mus musculus with 6 samples.

Results

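The secreted and membrane proteases that cut the extracellular matrix and cell surface proteins, the lysosomal cathepsins and the tissue inhibitors of metalloproteinases (TIMPs) were examined in sorted cells of mouse small-cell lung cancer. Members were the genes whose symbol begins with Mmp, Adam, Adamts, Adamtsl or Timp followed by a digit, or is Cts followed by a single letter. They had to be named alone by a row of the array table, and a gene with several rows was represented by the row with the highest mean. This gave 100 genes of the 22179 measured: 22 matrix metalloproteinases (MMPs), 33 ADAMs, 18 ADAMTS proteases, 5 ADAMTS-like proteins, 4 TIMPs and 18 cathepsins. The rule used names only and no measured value.

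The GFP-high group held 3 samples of cells with high GFP from a reporter allele for Hes1, which encodes a repressor of transcription and is a common target of Notch signalling. The GFP-negative group held 3 samples of cells sorted as negative or low for the same reporter. Cells of both groups came from tumours of mice with conditional knockout alleles of Rb, p53 and p130, in which Cre was delivered into the trachea by adenovirus, so the triple deletion and the reporter were shared by both groups. Tumours were taken from the lungs 5 to 6 months after Cre, and tumours of 3 mice were pooled for sorting. The promoter driving Cre, the sort gates, the age of the mice and whether leukocytes were removed were not stated in the sources used here. Samples are labelled as biological replicates, but it is not stated whether each had its own pool, so the p-values measure the spread between these samples.

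MMPs and ADAMTS proteases cut collagens, proteoglycans and other matrix proteins, while many ADAMs release the outer parts of membrane proteins, a step called shedding. ADAM10 cuts ligand-bound Notch receptors, and ADAM17 sheds tumour necrosis factor and several ligands of the epidermal growth factor receptor. Cathepsins digest proteins mainly in lysosomes, and TIMPs bind and block the active site of metalloproteinases. Not all members are proteases: ADAMTS-like proteins lack the catalytic domain, and several ADAMs have lost the active site.

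Expression was measured on Affymetrix Mouse Gene 2.0 ST arrays, and each value below is a log2 expression value made by the authors. A difference is GFP-high minus GFP-negative on the log2 scale, with its standard error (SE), and a gene was called when limma's Benjamini-Hochberg adjusted p over all 22179 genes was under 0.05. Arrays of 1 group correlated at 0.987 to 0.991 across genes and arrays of different groups at 0.918 to 0.940. Neuroendocrine markers, which define small-cell lung cancer, averaged 7.93, 7.71 and 8.52 in the GFP-high samples and 9.86, 9.91 and 9.95 in the GFP-negative samples. Of 8 such markers measured 7 were lower and 1, Nkx2-1, named after its value was seen, was higher in GFP-high cells, and 2 listed ones were not analysed here. Markers of alveolar type 2 cells averaged 9.61 to 10.04 against 6.19 to 6.65 (9 of 10 higher). Markers of club and secretory cells averaged 10.63 to 11.03 against 6.80 to 7.49 (9 of 10 higher). Markers of alveolar type 1 cells averaged 8.60 to 8.84 against 6.87 to 6.98 (9 of 10 higher and 1 lower). These lists differed between the same samples as the members below, and their part in the members' results was not tested. In sorted bulk samples, fewer cells of a type and less RNA per cell cannot be told apart.

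In the GFP-high cells 18 of the 100 members were higher and 7 were lower, and 75 did not pass the test. Among all genes 30% were called, 13% as higher and 17% as lower, so the 25 members called (25.0%) were no larger a share than that of all genes. With a log2 difference of at least 1 as well, 11 members were higher and 5 lower, where the same rule called 5.63% of all genes as higher and 6.02% as lower. The 3 GFP-high values lay all above or all below the 3 GFP-negative values in 32 members, against 44.6% of all genes, and the 25 called members were among these 32. The median log2 difference was 0.13 over the members and 0.01 over all genes. Many members had low values. Without the 30% of genes with the lowest mean, 58 members were tested and 26 of them called (44.8%), against 44.1% of all genes. The smallest adjusted p that missed the threshold was 0.0527 (Adamts1), and the largest that met it was 0.0323 (Ctsb).

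**Figure D1:**
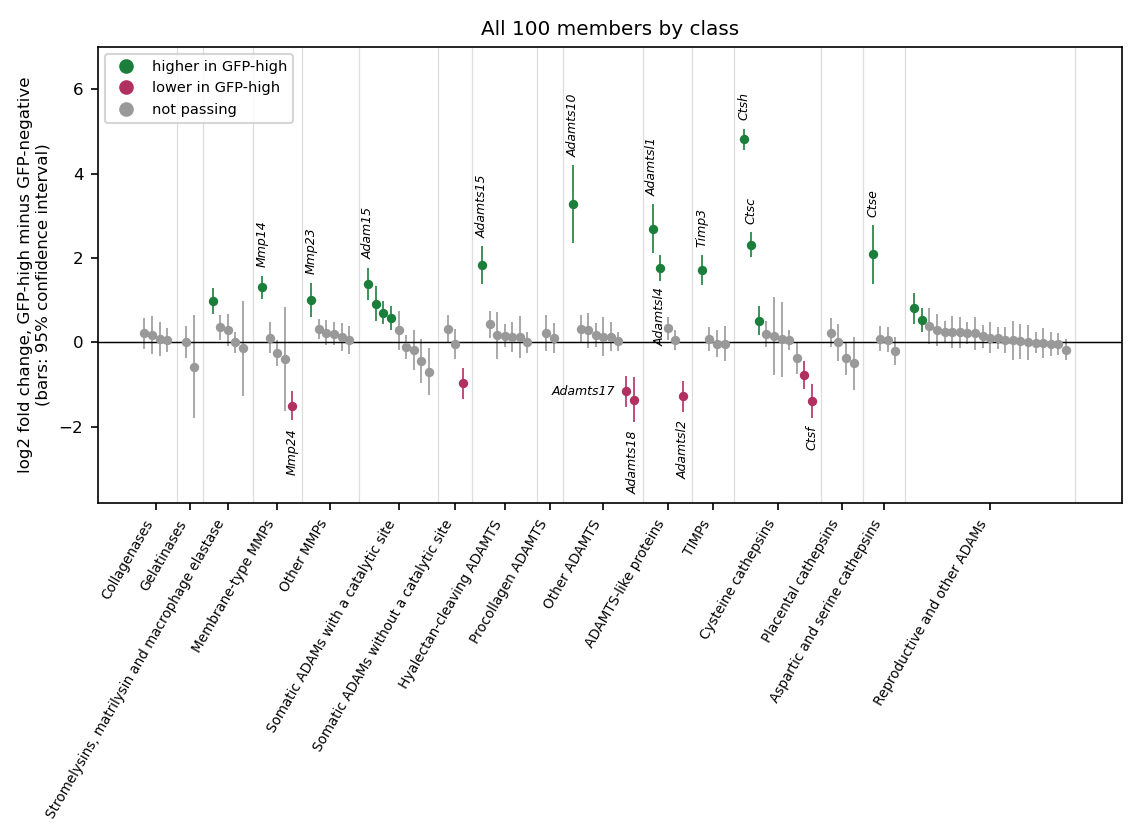
Log2 difference, GFP-high minus GFP-negative, of all 100 members grouped by class (horizontal axis), with 95% confidence intervals as bars and n = 3 arrays per group. Green points were called higher, red points lower and grey points did not pass. Ctsh had the largest difference (4.81), collagenases and gelatinases had no called member, and the membrane-type MMPs, other ADAMTS, ADAMTS-like proteins and cysteine cathepsins held members called in both directions.

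Of the 22 MMPs, 3 were higher in GFP-high cells (Mmp14, Mmp11 and Mmp23), 1 was lower (Mmp24) and 18 did not pass. The share called was 18.2%, against 30% of all genes. Mmp14, which encodes a membrane-anchored collagenase that also activates pro-MMP2, read 9.41, 9.36 and 9.51 in GFP-high samples and 7.94, 8.21 and 8.22 in GFP-negative samples. The groups lay apart, and Mmp14 was 2.47-fold higher in GFP-high cells (log2 difference 1.30, SE 0.12, adjusted p = 9.30e-05). Mmp24, another membrane-type MMP, known for its expression in the nervous system, went the other way, at 6.39, 6.43 and 6.39 in GFP-high samples against 7.62, 7.89 and 8.18 in GFP-negative samples. Its log2 difference was -1.50 (SE 0.15, adjusted p = 0.000129). A further row that names Mmp24 together with BC029722 did not show this gap, with 6.52, 6.18 and 6.35 in GFP-high samples and 6.17, 6.36 and 6.22 in GFP-negative samples. The other 3 membrane-type members measured did not pass, and a further listed one was not analysed here.

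Mmp11, or stromelysin 3, is known as a protease of the stroma around carcinomas. It read 7.39, 6.94 and 7.13 in GFP-high samples and 6.20, 6.11 and 6.17 in GFP-negative samples, without overlap (log2 difference 0.99, SE 0.13, adjusted p = 0.000644). Its second row gave a smaller difference of 0.41 (SE 0.11, adjusted p = 0.0239 in the fit of every row). Mmp23, a type II membrane protein that is released by cleavage, read 7.15, 6.70 and 6.66 in GFP-high samples and 5.93, 5.54 and 5.99 in GFP-negative samples. It was 2.02-fold higher in GFP-high cells (log2 difference 1.01, SE 0.18, adjusted p = 0.00247). Fibroblast markers, which bear on a stromal gene such as Mmp11, averaged 5.53 to 6.09 in GFP-high and 5.55 to 5.79 in GFP-negative samples. Of 10 such markers 1 was higher (Col6a3) and 1 lower (Dcn), 5 had an unadjusted p under 0.05, and the median log2 difference was 0.16. Col1a1, Col1a2, Col3a1 and Fbln1, named after their values were seen, were not called. Their log2 differences were 0.46, 0.45, 0.50 and -0.75. The part of the fibroblast markers in the Mmp11 result was not tested.

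No collagenase (0 of 4) and no gelatinase (0 of 2) was called by limma, with 0 of these 6 also at an unadjusted p under 0.05 and 0 called without moderation. Mmp8, the neutrophil collagenase, had a log2 difference of 0.09 (95% confidence interval -0.32 to 0.49), and Mmp9, gelatinase B, one of 0.00 (-0.38 to 0.38). For the other gelatinase, Mmp2, the data set only a wide limit. It read 5.02, 4.78 and 5.55 in GFP-high samples and 5.14, 4.80 and 7.14 in GFP-negative samples, and its interval ran from -1.79 to 0.65. The GFP-negative replicate 3 value stood above all others, as it did for the membrane-type Mmp16, named after its value was seen, at 3.81, 3.85 and 4.29 in GFP-high samples and 3.79, 3.45 and 5.87 in GFP-negative samples. These were the members with the widest spread within groups, with a pooled standard deviation (SD) of 0.94 each.

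In the order of the RefSeq annotation of GRCm38.p6, 10 MMP genes were neighbours at distances within 500 kb: Mmp13, Mmp12, Mmp1b, Mmp3, Mmp1a, Mmp10, Mmp8, Mmp27, Mmp20 and Mmp7. None of the 10 was called by limma, 1 had an unadjusted p under 0.05 and 0 were called without moderation, and the log2 differences ran from -0.13 to 0.36. All their values lay between 1.94 and 7.17. Mmp10 was called higher without GFP-negative replicate 3 (adjusted p = 0.0263). AP-1, the dimer of Fos and Jun proteins, is the textbook activator of stromelysin and collagenase genes, and its motif TGANTCA, searched on both strands, was in the RefSeq promoter window (250 bases before to 50 after the gene start) of 13 of the 65 members that have one (20.0%), against 7.81% of 32851 promoters. Of these 13, 8 were among the 10 neighbours. None of the 8 members called higher and none of the 7 called lower that have a window held it. To show the shared letters at this locus, 60 bases around the motif, in capitals, are given 5′ to 3′ from RefSeq for 4 of the neighbours, at chr9:7445750-7445809 (Mmp3), chr9:7502253-7502312 (Mmp10), chr9:7347304-7347363 (Mmp12) and chr9:7272453-7272512 (Mmp13) of GRCm38.p6, all on the plus strand.
Mmp3: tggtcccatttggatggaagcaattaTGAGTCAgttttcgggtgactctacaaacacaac
Mmp10: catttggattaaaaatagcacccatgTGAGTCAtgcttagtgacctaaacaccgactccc
Mmp12: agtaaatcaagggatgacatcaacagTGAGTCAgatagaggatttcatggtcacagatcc
Mmp13: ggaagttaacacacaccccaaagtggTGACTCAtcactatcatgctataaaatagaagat
The motif began 46, 63, 44 and 35 bases before the start of Mmp3, Mmp10, Mmp12 and Mmp13. A match to these letters is a description and not evidence of binding.

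Among the TIMPs only Timp3 was called, and it was higher in GFP-high cells. TIMP3 is bound to the matrix and, besides MMPs, inhibits ADAM17 and several ADAMTS proteases. It read 11.20, 11.53 and 11.13 in GFP-high samples and 9.40, 9.81 and 9.53 in GFP-negative samples. Every GFP-high value lay above every GFP-negative value, and Timp3 was 3.27-fold higher (log2 difference 1.71, SE 0.16, adjusted p = 8.21e-05).
The other TIMPs lay close together in the groups. Timp2, which takes part in the activation of pro-MMP2 by MMP14, read 9.33, 9.17 and 9.32 in GFP-high samples and 9.24, 9.56 and 9.10 in GFP-negative samples (log2 difference -0.03, 95% confidence interval -0.35 to 0.30, adjusted p = 0.914). Timp1, an inhibitor induced in inflammation, read 4.38, 4.14 and 4.42 in GFP-high samples and 4.35, 4.12 and 4.26 in GFP-negative samples (log2 difference 0.07, interval -0.21 to 0.36). Timp4 read 3.94, 4.61 and 4.13 in GFP-high samples and 4.24, 4.11 and 4.41 in GFP-negative samples (log2 difference -0.03, interval -0.44 to 0.38). The 3 intervals all excluded a rise as large as that of Timp3. A p above the threshold does not show that levels were equal.

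**Figure D2:**
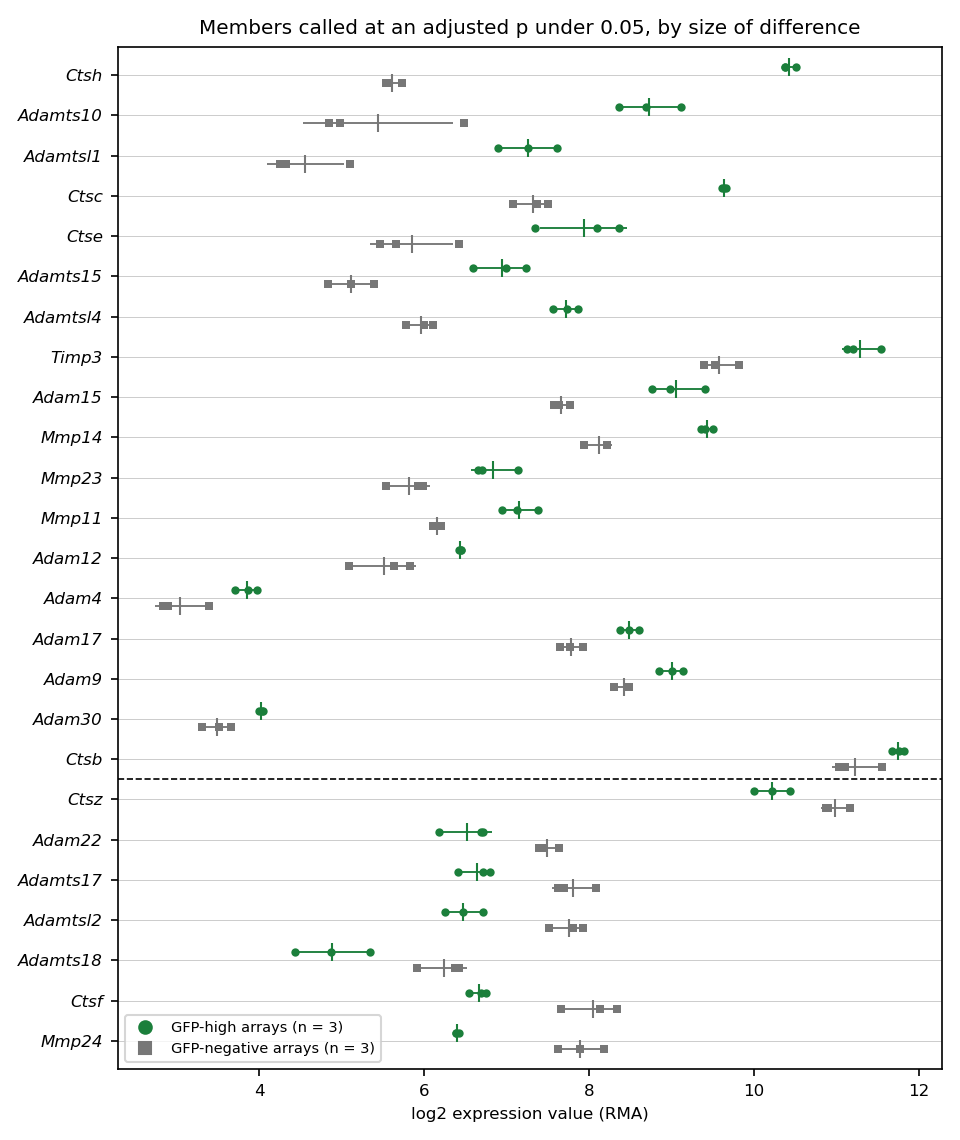
Log2 expression values of the 25 called members in each array, ordered by the size of the difference, with the 18 higher members above the dashed line and the 7 lower members below it. Green circles are GFP-high and grey squares GFP-negative arrays (n = 3 each), vertical ticks are means and horizontal bars SDs. The groups do not overlap in any of the 25 genes, and the gap is widest for Ctsh.

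Of the 9 ADAMs of body tissues with a catalytic site, 4 were higher in GFP-high cells and none was lower, where 13% of all genes were higher and 17% lower. Of the 5 that did not pass, Adam28 (log2 difference -0.69, adjusted p = 0.0669) was called lower without GFP-high replicate 3 (adjusted p = 0.0295) or GFP-negative replicate 3 (0.0406), and Adam8 (-0.44, adjusted p = 0.202) without GFP-high replicate 3 (0.0295), both named after their values were seen. Adam15, which carries an integrin-binding motif in its disintegrin domain, read 8.99, 9.41 and 8.76 in GFP-high samples and 7.58, 7.77 and 7.63 in GFP-negative samples, a 2.62-fold difference (log2 1.39, SE 0.17, adjusted p = 0.000352). A second Adam15 row was higher by 0.44 (SE 0.11, adjusted p = 0.0195 in the fit of every row). The groups lay apart in the first row by more than the range of either. The other called ADAMs of the class were named after their values were seen. Adam17 read 8.38, 8.49 and 8.61 in GFP-high samples and 7.77, 7.92 and 7.65 in GFP-negative samples (log2 difference 0.71, SE 0.12, adjusted p = 0.00240). Adam12, which is prominent in muscle and placenta, read 6.45, 6.45 and 6.42 in GFP-high samples and 5.64, 5.09 and 5.83 in GFP-negative samples (log2 difference 0.92, SE 0.18, adjusted p = 0.00485). In both genes the lowest GFP-high value lay above the highest GFP-negative value. Adam9, a widely expressed sheddase, read 9.01, 8.85 and 9.14 against 8.30, 8.49 and 8.48 in the GFP-negative samples (log2 difference 0.58, SE 0.12, adjusted p = 0.00696).

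Adam10, the member of this class with the highest mean, was not called. It read 9.81, 9.54 and 9.86 in GFP-high samples and 9.81, 9.96 and 9.76 in GFP-negative samples, which overlap. The log2 difference was -0.11 with a 95% confidence interval of -0.40 to 0.19 (adjusted p = 0.596). Adam22, a neuronal ADAM without a catalytic site that binds the secreted protein LGI1, was lower in GFP-high cells. It read 6.18, 6.71 and 6.69 in GFP-high samples and 7.40, 7.45 and 7.64 in GFP-negative samples (log2 difference -0.97, SE 0.16, adjusted p = 0.00212). The other 2 of its class, Adam11 and Adam23, did not pass.

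ADAM17 and ADAM10 depend on partner proteins for their maturation and choice of substrates, and these partners were measured too. A list of 14 partners and activators of MMPs and ADAMs held 5 higher and 4 lower genes (64.3% called, against 30% of all genes), with a median log2 difference of 0.24, against 0.01 over all genes. The inactive rhomboids iRhom1 and iRhom2, encoded by Rhbdf1 and Rhbdf2, carry ADAM17 out of the endoplasmic reticulum. Rhbdf1 read 9.13, 9.34 and 8.67 in GFP-high samples and 6.96, 7.30 and 6.83 in GFP-negative samples (log2 difference 2.01, SE 0.19, adjusted p = 0.000107). Rhbdf2 read 8.70, 8.40 and 8.36 in GFP-high samples and 6.39, 6.38 and 6.43 in GFP-negative samples (log2 difference 2.09, SE 0.13, adjusted p = 7.07e-06). In both genes the groups lay more than 1 log2 unit apart. Frmd8, named after its value was seen, encodes a protein that binds the iRhoms and stabilises them at the cell surface. It read 7.78, 7.61 and 7.38 in GFP-high samples and 6.66, 6.74 and 6.80 in GFP-negative samples (log2 difference 0.85, SE 0.13, adjusted p = 0.00122).

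The tetraspanins that bind ADAM10 and steer it to different substrates moved in both directions: of 6, 1 was higher, 3 were lower and 2 did not pass. Among all genes 13% were called higher and 17% lower. Tspan33 read 8.13, 8.45 and 8.11 in GFP-high samples and 5.57, 5.90 and 5.58 in GFP-negative samples (log2 difference 2.55, SE 0.15, adjusted p = 5.42e-06). Tspan15, linked to ADAM10 cleavage of N-cadherin, read 7.26, 6.55 and 7.80 in GFP-high samples and 9.60, 9.43 and 9.36 in GFP-negative samples (log2 difference -2.26, SE 0.27, adjusted p = 0.000327). In each of these genes the groups lay apart by more than a full log2 unit. Tspan5 and Tspan17, named after their values were seen, were lower by 1.95 and 0.80 on the log2 scale, with adjusted p = 2.58e-05 and 0.00124. Tspan14 had a log2 difference of 0.22 (adjusted p = 0.254) and Tspan10 one of 0.14 (adjusted p = 0.495). Of the remaining list, Bsg, the MMP inducer basigin, was higher by 0.75 and the proprotein convertase Pcsk5 was lower, with a log2 difference of -0.60, both named after their values were seen. Pcsk6, another proprotein convertase, had a log2 difference of 0.49 without overlap of the groups and was not called (adjusted p = 0.0616). It was called higher under several alternatives, among them quantile normalization (adjusted p = 0.0324) and array weights (0.0464). Furin, the main activator of membrane-type MMPs and ADAMs, had a log2 difference of -0.39 (adjusted p = 0.128), and the MMP inhibitor Reck one of 0.26 (adjusted p = 0.240).

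**Figure D3:**
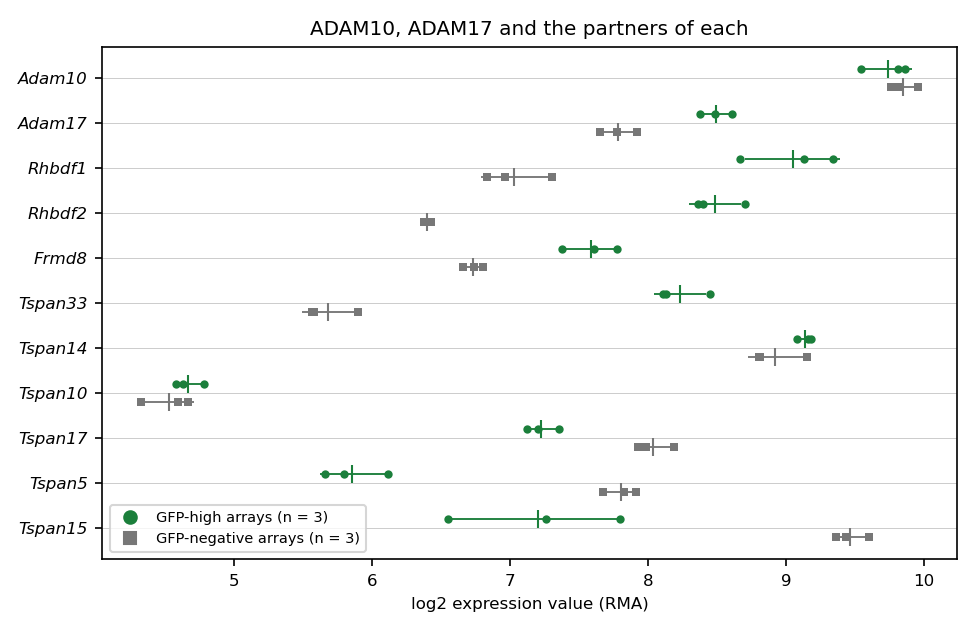
Log2 expression values of Adam10, Adam17 and their partners in each array, with green circles for GFP-high and grey squares for GFP-negative arrays (n = 3 each), vertical ticks for means and horizontal bars for SDs. Adam17 and its partners Rhbdf1, Rhbdf2 and Frmd8 are higher in GFP-high arrays, while Adam10 overlaps between the groups and its tetraspanin partners lie on both sides.

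The ADAMTS proteases and ADAMTS-like proteins held the largest differences of the metalloproteinase families. Adamts10, whose protein takes part in fibrillin microfibril assembly, read 8.70, 9.12 and 8.37 in GFP-high samples and 4.85, 4.98 and 6.49 in GFP-negative samples. It was 9.76-fold higher in GFP-high cells (log2 difference 3.29, SE 0.40, adjusted p = 0.000365), although GFP-negative replicate 3 stood above the other two GFP-negative arrays. Adamtsl1 read 7.62, 6.90 and 7.26 in GFP-high samples and 4.33, 4.26 and 5.10 in GFP-negative samples (log2 difference 2.70, SE 0.25, adjusted p = 9.44e-05). Adamtsl4, which binds fibrillin and is needed for the fibres that hold the lens of the eye, read 7.56, 7.86 and 7.74 in GFP-high samples and 5.78, 6.11 and 6.00 in GFP-negative samples (log2 difference 1.76, SE 0.13, adjusted p = 3.02e-05). In both ADAMTS-like genes the gap between the groups exceeded 1 log2 unit.

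Adamtsl2, another fibrillin-binding protein, went the other way, at 6.25, 6.47 and 6.71 in GFP-high samples against 7.52, 7.93 and 7.80 in GFP-negative samples (log2 difference -1.27, SE 0.16, adjusted p = 0.000407). Adamts17 and Adamts18 were lower as well. Adamts17 read 6.41, 6.71 and 6.80 in GFP-high samples and 7.69, 8.09 and 7.62 in GFP-negative samples (log2 difference -1.16, SE 0.16, adjusted p = 0.000751). Adamts18 read 4.88, 4.43 and 5.35 in GFP-high samples and 6.43, 6.38 and 5.92 in GFP-negative samples (log2 difference -1.36, SE 0.24, adjusted p = 0.00240). All 3 were lower in every GFP-high array than in any GFP-negative array. Of the 7 lower members, 5 had GFP-high replicate 3 as the GFP-high array nearest the GFP-negative group. Of the 18 higher members, 7 had GFP-high replicate 3 as the nearest, 8 had replicate 2 and 3 had replicate 1. GFP-high replicate 3 had the highest neuroendocrine marker mean of its group, and also the highest alveolar type 2 marker mean (10.04). Its means of club and secretory markers (10.63) and of alveolar type 1 markers (8.60) were the lowest of the group. The part of these markers in the differences was not tested.

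Of the 7 ADAMTS proteases known to cleave hyalectans, the large proteoglycans such as aggrecan and versican, only Adamts15 was called. It read 7.24, 6.59 and 6.997 in GFP-high samples and 5.39, 4.84 and 5.12 in GFP-negative samples, a 3.54-fold difference (log2 1.83, SE 0.20, adjusted p = 0.000195). Adamts1 just missed the threshold, with groups apart and a log2 difference of 0.43 (adjusted p = 0.0527). It was called higher with per-array median centring (adjusted p = 0.0499) and without the 30% of genes with the lowest mean (0.0352). Adamts5, the member of this class with the highest mean and the main aggrecanase of mouse cartilage, read 8.29, 8.15 and 8.60 in GFP-high samples and 8.26, 8.64 and 7.76 in GFP-negative samples, which overlap (log2 difference 0.13, interval -0.38 to 0.63). Adamts8, adjacent to Adamts15 in the genome, had rows that disagreed in sign, 0.13 in the row used and -0.06 in the second, neither of which passed. Of 8 hyalectan and link protein genes, 1 was higher and 1 lower (25.0% called, against 30% of all genes), with a median log2 difference of -0.07. Bcan, which encodes brevican, read 8.96, 8.80 and 8.54 in GFP-high samples and 5.30, 4.56 and 5.63 in GFP-negative samples (log2 difference 3.60, SE 0.25, adjusted p = 1.83e-05). Vcan, which encodes versican, had a log2 difference of -1.61 (SE 0.42, adjusted p = 0.0188). Its call was lost without GFP-high replicate 1 (adjusted p = 0.0662) or GFP-high replicate 2 (adjusted p = 0.0727). The 2 procollagen-processing ADAMTS members measured were not called by limma, with 0 at an unadjusted p under 0.05 and 0 without moderation. Adamts14, which had the higher mean, had a log2 difference of 0.22 (adjusted p = 0.437).

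The cathepsins held the largest difference of all members. Ctsh encodes cathepsin H, an aminopeptidase that in alveolar type 2 cells takes part in processing the surfactant proteins B and C. It read 10.38, 10.50 and 10.38 in GFP-high samples and 5.54, 5.73 and 5.56 in GFP-negative samples, so that the arrays of each group were within 0.2 of each other while the groups lay almost 5 log2 units apart. Ctsh was 28.0-fold higher in GFP-high cells (log2 difference 4.81, SE 0.11, adjusted p = 1.83e-07). Alveolar type 2 markers moved with it, among them Lamp3 with a log2 difference of 5.76 and Sftpd, named after its value was seen, with 4.36, and their part in the result was not tested. Adamts7, the neighbour of Ctsh in the genome, had a log2 difference of 0.33 (adjusted p = 0.128) and was called without GFP-high replicate 3 (adjusted p = 0.0296). Ctsc, or dipeptidyl peptidase I, which activates serine proteases of leukocytes, read 9.66, 9.61 and 9.64 in GFP-high samples and 7.37, 7.51 and 7.08 in GFP-negative samples (log2 difference 2.32, SE 0.13, adjusted p = 5.39e-06). Ctse, an aspartic protease of epithelial and immune cells, read 8.36, 7.35 and 8.10 in GFP-high samples and 5.66, 6.42 and 5.47 in GFP-negative samples (log2 difference 2.08, SE 0.30, adjusted p = 0.000959). The groups lay apart in both genes, more narrowly in Ctse.

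Of the other cathepsins, Ctsf and Ctsz were lower, Ctsb was called higher, and the rest did not pass. Ctsf, a widely expressed lysosomal cysteine protease, read 6.70, 6.54 and 6.76 in GFP-high samples and 8.14, 8.33 and 7.66 in GFP-negative samples (log2 difference -1.38, SE 0.17, adjusted p = 0.000435). Ctsz, a carboxypeptidase named after its value was seen, read 10.22, 9.998 and 10.43 in GFP-high samples and 10.87, 11.17 and 10.90 in GFP-negative samples (log2 difference -0.76, SE 0.15, adjusted p = 0.00421). Both were lower in every GFP-high array than in any GFP-negative array. Ctsb, a lysosomal endopeptidase, read 11.76, 11.67 and 11.82 in GFP-high samples and 11.03, 11.55 and 11.10 in GFP-negative samples (log2 difference 0.52, SE 0.15, adjusted p = 0.0323). This call was the least secure, since it was lost when any array other than GFP-negative replicate 2 was left out, with adjusted p from 0.0600 to 0.115. Ctsd, the aspartic lysosomal protease with the highest mean of its class, read 10.28, 10.12 and 10.39 in GFP-high samples and 10.34, 10.74 and 10.31 in GFP-negative samples (log2 difference -0.20, interval -0.54 to 0.14). None of the 4 placental cathepsins was called by limma, with 0 at an unadjusted p under 0.05 and 0 without moderation, and all their values lay between 2.14 and 3.97. Ctsj, the member of this class with the highest mean, had a log2 difference of -0.38 with groups apart (adjusted p = 0.128). It was called lower without GFP-high replicate 1 (adjusted p = 0.0380).

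To place the cathepsins among other lysosomal genes, 20 of these were read from a list, and 4 listed ones were not analysed here. Of the 20, 5 were higher, 2 lower and 13 not called, with a median log2 difference of 0.23 against 0.01 over all genes. The share called, 35.0%, was near the 30% of all genes. Npc2, a carrier of cholesterol within the lysosome, read 11.43, 11.56 and 11.31 in GFP-high samples and 8.30, 8.68 and 8.42 in GFP-negative samples (log2 difference 2.96, SE 0.14, adjusted p = 1.50e-06). Napsa, an aspartic protease that like Ctsh processes surfactant protein B, was higher by 2.26 (SE 0.23, adjusted p = 0.000133). Gnptab, which makes the mannose-6-phosphate tag of lysosomal enzymes, was higher by 1.32 (SE 0.14) and Lamp2 by 0.92 (SE 0.12). The calls of Hexa (log2 difference -0.53, adjusted p = 0.0433) and Scpep1 (0.51, adjusted p = 0.0193), named after their values were seen, were lost when certain single arrays were left out. For Hexa these were GFP-high replicates 1 and 2 and GFP-negative replicates 2 and 3, with adjusted p up to 0.133. For Scpep1 they were GFP-high replicate 3 and GFP-negative replicate 1, with adjusted p up to 0.0731. Psap, named after its value was seen, was the other lower gene (log2 difference -0.70). Mcoln1, Lgmn, M6pr and Gaa, also named after their values were seen, gained a call under some alternatives. Mcoln1 (-0.39) was called lower without the 30% of genes with the lowest mean (adjusted p = 0.041). Lgmn (0.31) and M6pr (0.37) were called higher with quantile normalization (0.0289 and 0.0276), and Gaa (0.38) without GFP-negative replicate 2 (0.0299). Tfeb and Tfe3, activators of lysosomal genes, had log2 differences of 0.05 and 0.06 and did not pass. Among 11 cystatins, inhibitors of cysteine cathepsins, none was higher and 2 were lower (18.2% called, against 30% of all genes). Cst6, which encodes cystatin E/M, read 4.68, 4.35 and 5.12 in GFP-high samples and 5.80, 6.33 and 5.57 in GFP-negative samples (log2 difference -1.19, SE 0.24, adjusted p = 0.00565), a call lost without moderation (adjusted p = 0.0738) and against a minimum log2 difference of 0.5 (0.0814). The call of the other, Ahsg (log2 difference -0.55, SE 0.16, adjusted p = 0.0288), was lost without any array other than GFP-high replicate 3, with adjusted p up to 0.0798. Fetub (log2 difference -0.51, adjusted p = 0.0704) was not called, but was called lower without GFP-negative replicate 3 (adjusted p = 0.0137). Stfa2 (log2 difference 0.33, adjusted p = 0.0559) was called higher with array weights (adjusted p = 0.0355). Cst3, the widely expressed cystatin C, had a log2 difference of 0.10 (interval -0.30 to 0.50). In the plasminogen system, which activates several MMPs, 2 of 7 measured genes were called (28.6%, against 30% of all genes). A further 2 listed genes were not analysed here. Plat, tissue plasminogen activator, was higher by 0.62 (SE 0.15, adjusted p = 0.0126), a call lost without moderation (adjusted p = 0.0660). Plau, urokinase, was higher by 0.37 (adjusted p = 0.0484), a call lost without any single array other than GFP-negative replicate 3, with adjusted p up to 0.152.

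Hes1 protein binds the N-box, CACNAG, and represses genes, so promoter windows were also searched for these letters on both strands. The motif was in the window of 28 of the 65 members that have one (43.1%), against 42.5% of 32851 promoters. Of the 18 members called higher only 8 have a window, and 3 of these held the motif, as did 5 of the 7 called lower. Both shares of called members rest on few windows. Windows of 60 bases from RefSeq (GRCm38.p6) are given 5′ to 3′ for 2 members that were higher, Ctsc (chr7:88277923-88277982, plus strand) and Mmp11 (chr10:75932619-75932678, minus strand), and 2 that were lower, Ctsf (chr19:4854986-4855045, plus strand) and Ctsz (chr2:174439075-174439134, minus strand), with the motif or its reverse complement CTNGTG in capitals.
Ctsc: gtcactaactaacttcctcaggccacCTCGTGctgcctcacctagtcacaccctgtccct
Mmp11: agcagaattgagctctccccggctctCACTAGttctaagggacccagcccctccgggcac
Ctsf: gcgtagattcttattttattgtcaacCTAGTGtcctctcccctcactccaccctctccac
Ctsz: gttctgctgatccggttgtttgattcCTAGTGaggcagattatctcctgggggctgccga
The motif began 136, 150, 153 and 69 bases before the starts of Ctsc, Mmp11, Ctsf and Ctsz. The RBPJ core TGGGAA, the site of the Notch effector complex, was in 29.2% of the members' windows and 25.6% of all. The E-box CACGTG, which reads the same on both strands, was in 13.8% and 7.15%. None of these matches was tested for binding.

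Several proteases known from macrophages varied more between arrays of a group than between groups. Mmp12, or macrophage elastase, read 6.95, 5.11 and 6.54 in GFP-high samples and 7.17, 5.74 and 6.10 in GFP-negative samples. Ctss, the cathepsin that trims the invariant chain in antigen presentation, read 7.88, 6.39 and 7.78 in GFP-high samples and 7.74, 6.80 and 7.29 in GFP-negative samples. Ctsk, the collagen-degrading cathepsin of osteoclasts, read 7.01, 5.37 and 6.41 in GFP-high samples and 6.67, 5.58 and 6.08 in GFP-negative samples. In all 3 genes, named after their values were seen, replicate 2 was the lowest array of both groups and the groups overlapped. Their log2 differences were -0.13, 0.07 and 0.16, with intervals of -1.26 to 0.99 for Mmp12, -0.82 to 0.97 for Ctss and -0.77 to 1.08 for Ctsk, so that differences of nearly 1 log2 unit were within the intervals. Replicate 2 was lowest in both groups for 7 of 10 macrophage markers, 6 of 10 general leukocyte markers and 4 of 10 fibroblast markers, against 13 of the 100 members and 13% of all genes. Macrophage markers averaged 6.13, 5.67 and 6.03 in GFP-high samples and 6.00, 5.53 and 5.79 in GFP-negative samples, with 1 of 10 higher (Cd14) and 1 lower (C1qa). General leukocyte markers averaged 5.74, 5.32 and 5.85 in GFP-high samples and 5.93, 5.55 and 5.71 in GFP-negative samples, with 1 of 10 lower. Their part in the values of these proteases was not tested.

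**Figure D4:**
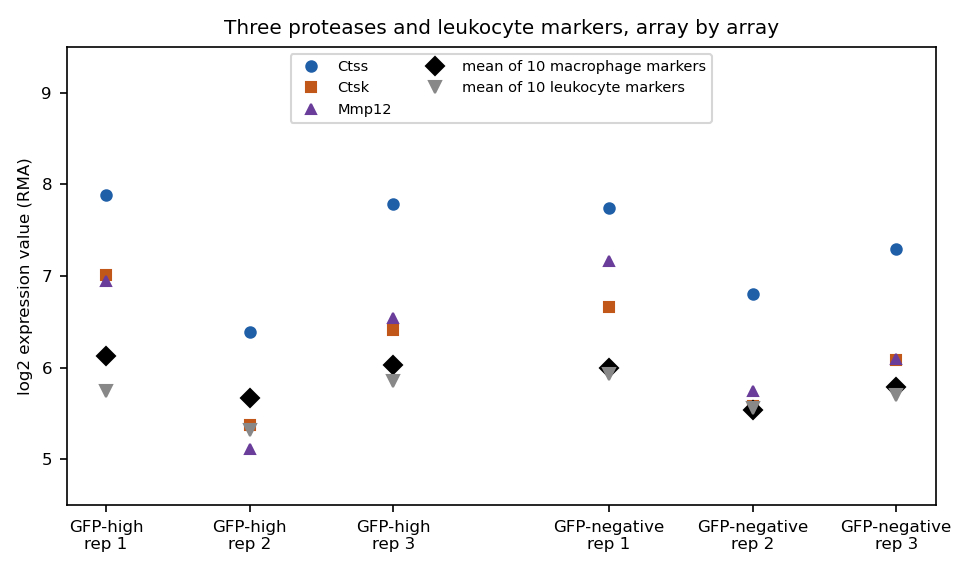
Log2 expression values of Ctss, Ctsk and Mmp12 in each of the 6 arrays, with the mean of 10 macrophage markers (diamonds) and 10 general leukocyte markers (grey triangles), GFP-high arrays at the left and GFP-negative arrays at the right. Replicate 2 is the lowest array of both groups in all 5 measures, and the groups overlap.

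The 21 remaining ADAMs, most of them known from testis and sperm, included 2 called members, both higher in GFP-high cells and named after their values were seen. The share called was 9.52%, against 30% of all genes. Adam4 read 3.86, 3.98 and 3.71 in GFP-high samples and 2.90, 2.84 and 3.40 in GFP-negative samples (log2 difference 0.81, SE 0.17, adjusted p = 0.00596). Adam30 read 4.05, 4.04 and 4.0 in GFP-high samples and 3.66, 3.31 and 3.52 in GFP-negative samples (log2 difference 0.53, SE 0.12, adjusted p = 0.0106). Both lay below the array medians of 5.30 to 5.43, where RMA values compress differences. Adam1a, the member of this class with the highest mean, read 5.44, 5.37 and 5.45 in GFP-high samples and 4.88, 4.99 and 5.51 in GFP-negative samples (log2 difference 0.29, adjusted p = 0.241). It was called higher without GFP-negative replicate 3 (adjusted p = 0.0237).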

How the data were processed

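RNA of 3 GFP-high and 3 GFP-negative samples was labelled with Affymetrix WT kits and hybridised to Mouse Gene 2.0 ST arrays, per the labels' protocols. The authors deposited log2 values summarised with RMA, per the submitters' processing notes. The log2 scale follows from their range (0.989 to 13.72, array medians 5.30 to 5.43). The RMA version and the build behind the platform annotation were not given in the sources used here. RMA makes the distributions of the arrays alike, which hides any change common to most genes, and the number of arrays limits the precision.

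Of 41344 rows, 23520 named exactly 1 gene, 1814 several and 16010 none; 22179 genes resulted, each with its highest-mean row, and 106 rows gave the 100 members, 6 of them with several rows. Rows naming several genes were left out of the test. limma 3.58.1 in R 4.3.3 (lmFit and eBayes, 4.50 prior and 4 residual degrees of freedom) was fitted over all genes without a block, with two-sided p-values adjusted by Benjamini-Hochberg. The fit was tested on simulated data. With 3 samples a group the smallest permutation p is 0.10, so none is given. Gene names were checked in the RefSeq gene table (23327 rows found, 0 symbols changed), and promoter windows came from RefSeq on GRCm38.p6. Members and lists were chosen with earlier results of these data known. The text names the called members with a log2 difference of at least 1, the TIMPs, the highest-mean member of each class, members whose rows disagree and up to 4 genes with the largest differences per further list, and up to 2 genes of a marker list. Other names were added after their values were seen and are marked so, apart from uncalled genes given for their role or as neighbours. Further marker lists were measured. Neutrophil markers averaged 4.72 to 4.87 in GFP-high and 4.20 to 4.28 in GFP-negative samples. Of these 10, 2 were higher, Ltf by 3.58 and Retnlg by 0.65. The other 8, among them S100a8 (log2 difference 0.11) and S100a9 (-0.04), were not called. Of T, NK and B cell markers 0 of 9 were called, with 0 at an unadjusted p under 0.05 and 0 without moderation. Of 10 endothelial markers 2 were higher, Kdr by 3.87 and Esam by 0.60. Ltf, Retnlg, Kdr and Esam were named after their values were seen. Of 9 ciliated cell markers 1 was higher and 2 were lower. The alternatives were other normalizations, filters, row rules, variance models, a replicate block and leaving out each array.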

Additional observations from a re-analysis of the deposited data

How the results depend on the processing

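No log2 difference of a named gene that was called reversed its sign under the alternatives run. Of the 25 called members, 24 kept their call under every alternative that tested them other than a test against a minimum log2 difference of 0.5 and the fit without moderation, the exception being Ctsb. Adam4 and Adam30 were not tested without the 30% of genes with the lowest mean, where the other 23 kept their call. In that fit Adamts1, Adamtsl3 and Mmp28 were gained. The test against a minimum log2 difference of 0.5 called 11 members higher and 5 lower. Without moderation 16 were higher and 6 lower, with Adam12 (adjusted p = 0.0572), Adam4 (0.0563), Adamts18 (0.0514) and Ctsb (0.111) lost. Mmp28 was gained as higher in that fit (adjusted p = 0.0313). With the replicate number as a block, which no label says pairs the samples, 17 were higher and 8 lower, with Ctsb lost (adjusted p = 0.0539) and Ctsq gained. Same-numbered samples of the groups had deviations from their group means that correlated at 0.11, -0.03 and 0.00, and not every sample correlated best with its own number. Leaving out each array gave 17 to 19 higher and 7 to 9 lower members, and medians of the log2 difference from 0.0920 to 0.1678. The median over the members was 0.13, and it was 0.0729 after quantile normalization and 0.0962 with array weights. The causes of these changes were not tested. The precision is limited by 3 arrays a group, and values near the lower end of this scale compress differences.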
